A study of Homo sapiens with 9 samples.

Results

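The genes described here encode 2-oxoglutarate-dependent dioxygenases that remove methyl groups from histones, DNA and RNA, together with close relatives that hydroxylate proteins or small molecules. They were taken as a named list of the TET, JmjC and AlkB families and related enzymes, without the hydroxylases of collagen and of the hypoxia-inducible factor HIF, and were matched by gene name. All 41 were found among the 58735 genes of the count table. Transcripts were measured by bulk RNA sequencing in U87, a cell line from human glioblastoma, in 3 groups of 3 libraries each. The C269S group stably expressed IDH1 with the R132H mutation and the further change C269S, serine in place of cysteine, the IDH1mt group stably expressed the R132H mutant alone, and the PCDH group carried the vector. In the series text the mutation is written R132H in one place and R13H in another, and the study asked about autopalmitoylation of the mutant enzyme, its attachment of a fatty acid to itself. No group expressed introduced normal IDH1, the number of selected clones behind each group is not given, and an effect of a construct and a difference between selected lines cannot be told apart. Whether a group's libraries stem from independent cultures is not stated, and every p-value here rests on their spread, which could be of technical origin alone. With 3 libraries against 3, an exact permutation test cannot give a two-sided p below 0.1, so tests are taken from a model fitted to all genes.

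These enzymes bind iron and use oxygen and 2-oxoglutarate, a metabolite made by isocitrate dehydrogenases, to oxidise their substrate. On a methyl group the oxidation yields an unstable product that is lost as formaldehyde, and on 5-methylcytosine the TET enzymes make 5-hydroxymethylcytosine. The R132H mutant of IDH1 converts 2-oxoglutarate to 2-hydroxyglutarate, a competitor for the same binding pocket, and glioma cells with the mutation are known for heavy methylation of DNA and histones. The files hold transcript levels only, not enzyme activity, metabolites or methylation, and in bulk RNA fewer expressing cells and less RNA per cell cannot be told apart.

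Total counts lay between 19108925 and 24803711 per library, and the 41 genes took 0.311% to 0.333% of them. The IDH1 transcript, the check of the labels, averaged 739 ± 30.3 CPM in C269S, 677 ± 16.5 CPM in IDH1mt and 111 ± 7.97 CPM in PCDH (CPM here are counts scaled to library sizes adjusted by TMM, the trimmed mean of M-values; SD, n = 3 each). Both mutants lay far above PCDH. The C269S libraries also lay entirely above the IDH1mt libraries, a difference that did not pass edgeR's quasi-likelihood test (unadjusted p = 0.0284, adjusted p = 0.227), and since both express introduced IDH1 the transcript does not check which mutant a column holds. PCDH replicate 3 stood apart: its count table differed from those of the other PCDH libraries with a chi-square per degree of freedom of 10.2 and 10.9, against 3.69 to 6.36 for every other pair within a group. Counts of called members and lists are therefore also given without it where they change. Of 8 glioma markers, the mesenchymal ones VIM and CD44 were abundant (group means of 2695 to 3413 CPM), GFAP, the astrocyte filament, averaged 3.11 to 4.01 CPM by group, and SOX2 and S100B were too low to test. Of the 6 tested, CHI3L1 was lower in C269S than in IDH1mt (16.7%, beside 4.90% of all tested genes). CD44 and CHI3L1 were higher and VIM lower in IDH1mt than in PCDH (50%, beside 14.1%). CD44 was higher in C269S than in PCDH (16.7%, beside 1.42%). In that comparison VIM was also called lower by limma-voom, by DESeq2 and by edgeR without PCDH replicate 3. DESeq2 called CHI3L1 higher there as well. The part of these marker differences in the results below was not tested. Of 10 markers of other cell types, PTPRC, CDH1 and CDH5 were too low to test and 0 of the remaining 7 passed edgeR's test in any comparison. At an unadjusted p under 0.05 that test found 1 of them, EPCAM, in IDH1mt against PCDH and 0 in the other comparisons, and DESeq2 and limma-voom called 0. Over all 16874 tested genes 4396 had such a p in IDH1mt against PCDH, 2019 in C269S against PCDH and 2817 in C269S against IDH1mt. The shares called were 14.1%, 1.42% and 4.90%. The median standard error of the markers' log2 fold changes was 0.41 to 0.43, beside 0.12 over all tested genes. Small differences of these markers were therefore not detectable.

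Promoters are shown for KDM3A, KDM4B and TET3, the genes that were called in both IDH1mt against PCDH and C269S against IDH1mt and have a RefSeq promoter entry. Each window runs from 250 bases before the start of the RefSeq transcript to base 50 of it, 5′ to 3′ on the gene's strand, from RefSeq on GRCh38.p14. Capitals mark ACGTG or GCGTG on either strand, the core of the hypoxia response element that HIF binds. CACGTG holds ACGTG on both strands and was counted as 2 matches. For KDM3A and TET3 the most upstream of several listed starts was taken. The KDM3A start lies inside the GENCODE gene, the TET3 start lies upstream of its GENCODE gene, and the KDM4B start is that of the gene.
KDM3A, chr2:86441121-86441420: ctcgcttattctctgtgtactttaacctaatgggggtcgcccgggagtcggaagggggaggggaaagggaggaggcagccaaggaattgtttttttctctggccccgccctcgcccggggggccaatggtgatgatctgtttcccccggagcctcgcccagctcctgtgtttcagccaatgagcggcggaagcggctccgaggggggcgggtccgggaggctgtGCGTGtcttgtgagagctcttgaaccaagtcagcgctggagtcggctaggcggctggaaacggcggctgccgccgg
KDM4B, chr19:4968863-4969162: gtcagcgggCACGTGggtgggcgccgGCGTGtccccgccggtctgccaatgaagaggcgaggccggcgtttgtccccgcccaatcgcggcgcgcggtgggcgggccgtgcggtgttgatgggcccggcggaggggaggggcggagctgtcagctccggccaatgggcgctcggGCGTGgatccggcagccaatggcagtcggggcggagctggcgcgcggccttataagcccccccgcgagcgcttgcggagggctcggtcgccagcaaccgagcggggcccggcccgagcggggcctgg
TET3, chr2:73984660-73984959: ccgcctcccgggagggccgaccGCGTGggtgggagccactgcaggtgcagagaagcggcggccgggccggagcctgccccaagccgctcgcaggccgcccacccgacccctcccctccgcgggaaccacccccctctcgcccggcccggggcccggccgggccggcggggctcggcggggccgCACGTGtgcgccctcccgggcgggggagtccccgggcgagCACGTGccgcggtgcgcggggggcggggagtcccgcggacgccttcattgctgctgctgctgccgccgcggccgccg

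The KDM3A window had 1 match, a GCGTG that begins 26 bases before the start. The KDM4B window had 4, with the CACGTG at the far end, 241 bases before the start, and a GCGTG 77 bases before it. The TET3 window had 5, from the CACGTG copies that begin 67 and 27 bases before the start and a GCGTG 228 bases before it. Windows were found for 37 of the 41 genes, and 28 of them (75.7%) held ACGTG or GCGTG, against 48.4% of 27305 windows of all genes. Within the family the windows of genes higher in IDH1mt than in PCDH held one in 5 of 6 cases, those of lower genes in 2 of 3 and those of genes that were not called in 21 of 27. The median share of G and C was 62.7% in the members' windows and 58.3% in all windows, and a match of these letters is a description of the window, not a site of binding.

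Compared per transcript length, the family spanned a wide range. Levels in this paragraph are the authors' FPKM, averaged over the 9 libraries. ASPH, which hydroxylates aspartate and asparagine in EGF-like domains, was highest at 76.7 FPKM, followed by ALKBH5, an eraser of m6A in RNA, at 59.9 FPKM and KDM5C, an H3K4 demethylase, at 27.6 FPKM. ALKBH7, JMJD6 and KDM2A also exceeded 10 FPKM, 28 genes lay between 1 and 10 FPKM, and 7 were below 1 FPKM. The median gene of the family stood at 3.63 FPKM and the median of all tested genes at 3.23 FPKM. Within the TET branch TET3 led with 1.48 ± 0.118 FPKM in C269S, 1.95 ± 0.0574 FPKM in IDH1mt and 1.43 ± 0.0920 FPKM in PCDH (SD, n = 3 each). TET2 stood at 0.967 ± 0.0837, 1.07 ± 0.127 and 0.856 ± 0.0786 FPKM in the same groups, below TET3 in every library. TET1 was the lowest gene of the family at 0.0245 FPKM. Many neighbours in this order overlapped across libraries, as KDM4A and KDM6A did, while the 3 leading genes did not.

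**Figure D1:**
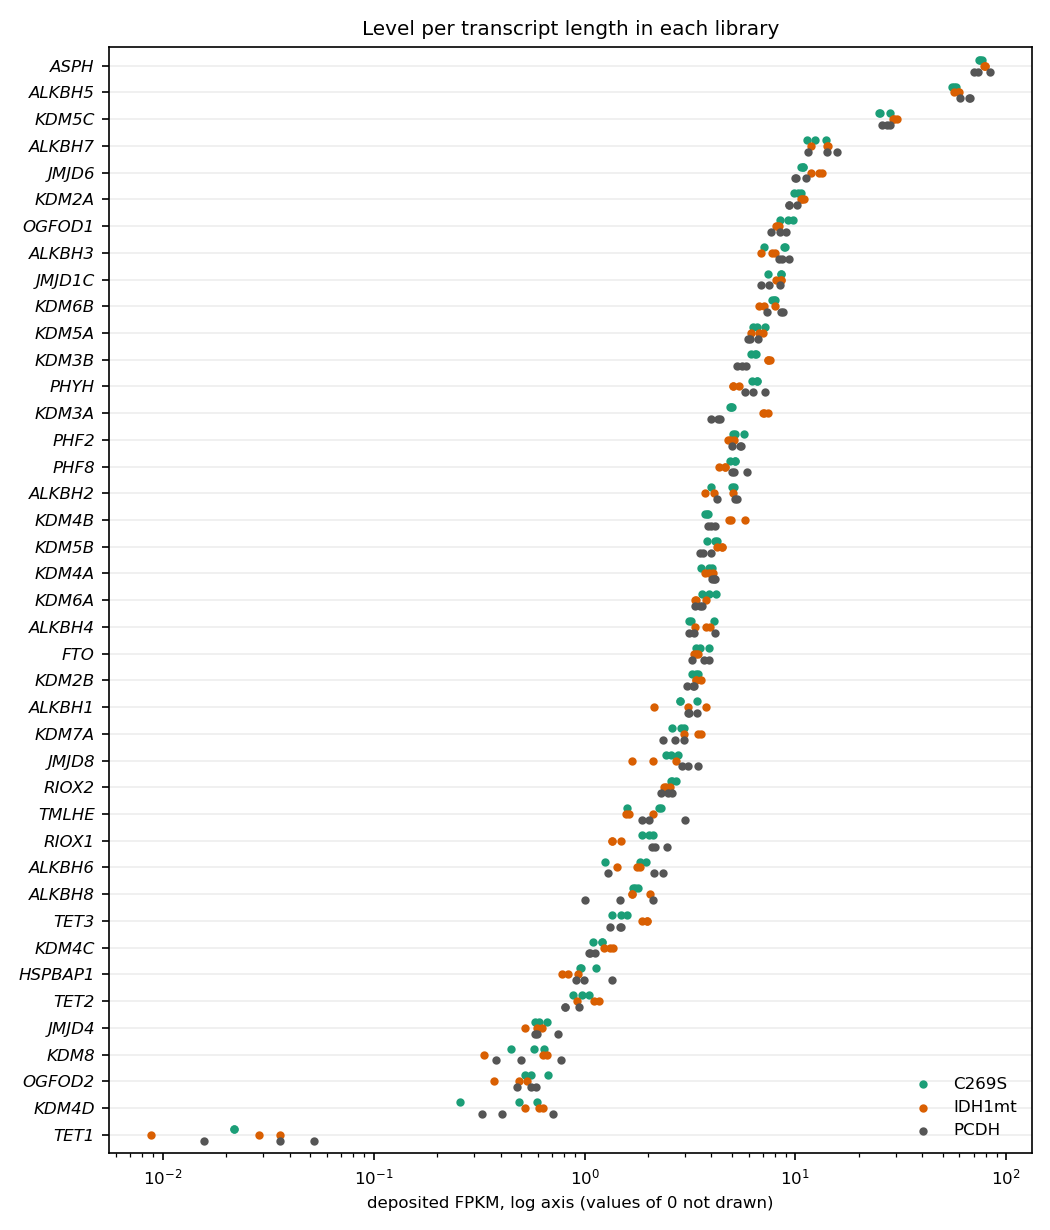
Deposited FPKM of each of the 41 genes in each library, on a log axis, sorted by the mean over 9 libraries; colours mark C269S, IDH1mt and PCDH, and a value of 0 is not drawn. ASPH, ALKBH5 and KDM5C lie above all others and TET1 lies far below.

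The R132H mutant was compared with the vector to ask what the mutant enzyme changes. Of 40 genes with enough counts to test, 7 were higher in IDH1mt and 4 lower, which is 27.5% of them, beside 14.1% of all 16874 genes tested (7.18% were higher and 6.90% lower). Called means an adjusted p under 0.05 in edgeR's quasi-likelihood test with Benjamini-Hochberg adjustment over all tested genes. Those higher were KDM3A, KDM3B, KDM4B, KDM5B and KDM7A, all histone demethylases, the DNA dioxygenase TET3 and the lysyl hydroxylase JMJD6. Those lower were the histone demethylase PHF8, the ribosomal oxygenase RIOX1, JMJD8 and the peroxisomal PHYH. The median log2 fold change of the 40 was -0.02, beside -0.01 over all tested genes. The 3 libraries of IDH1mt lay entirely above those of PCDH for 10 genes and entirely below for 6 (29.2% of all tested genes had groups that did not overlap, 14.3% higher and 14.9% lower). Without PCDH replicate 3 there were 10 calls higher, with TET2, JMJD1C and ALKBH8 added, and 5 lower, with KDM6B added, while calls over all tested genes came to 17.8% in that fit. The fewest with any library left out were 5 higher (without IDH1mt replicate 1 or 2, or PCDH replicate 2) and 1 lower (without IDH1mt replicate 1 or 2, or PCDH replicate 1), where 9.45% to 10.2% of all tested genes were called. The 1 lower was RIOX1 without IDH1mt replicate 1 or 2. Without PCDH replicate 1 it was ALKBH5, and the calls of PHF8, RIOX1, JMJD8 and PHYH were all lost. In limma on the deposited FPKM (pseudocount 0.1) 4 were higher and 1 lower, beside 9.36% of all tested genes.

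C269S was compared with IDH1mt to ask what the replaced cysteine changes on the mutant background. KDM3A, KDM4B, TET3 and JMJD6 were lower in C269S and 0 genes were higher, so that 10% of the 40 were called, beside 4.90% of all tested genes (2.61% lower, 2.29% higher). This comparison and that of IDH1mt with PCDH share the IDH1mt libraries, so a high value in those libraries would enter both. A further 6 genes had an unadjusted p under 0.05 in edgeR's test without a call, beside 1990 of all 16874 tested genes. Of the 6, RIOX1, PHF8 and PHYH had positive and KDM3B, KDM5C and KDM7A negative log2 fold changes. The C269S libraries lay entirely above the IDH1mt libraries for 6 genes and entirely below for 10 (23.6% of all tested genes had groups that did not overlap, 11.8% in each direction). Without PCDH replicate 3, 1 gene (PHYH) was higher and 6 were lower, with KDM3B and KDM5C added, beside 7.24% of all tested genes in that fit. Without C269S replicate 2 or IDH1mt replicate 3 only KDM3A and KDM4B were called, beside 3.08% and 2.71% of all tested genes in those fits. DESeq2 called 0 higher and 6 lower, beside 6.51% of the genes it tested.

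C269S was also compared with PCDH. In edgeR's test 0 of the 40 genes were called, beside 1.42% of all tested genes (0.883% higher and 0.533% lower). At an unadjusted p under 0.05 the test found 2019 of all 16874 tested genes, and 4 of the 40. These were ALKBH5 (log2 fold change -0.20, unadjusted p = 0.00179, adjusted p = 0.0870), KDM3A, KDM3B and KDM5B. DESeq2 called KDM3A higher and ALKBH5 lower, beside 2.81% of the genes it tested, and limma-voom and limma on FPKM called 0 members. Without PCDH replicate 3 edgeR called 1 gene, KDM3A, higher (adjusted p = 0.0379), while calls over all tested genes came to 5.26%. The libraries of C269S lay entirely above those of PCDH for 2 genes and entirely below for 4 (15.2% of all tested genes had groups that did not overlap, 7.62% higher and 7.57% lower).

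**Figure D2:**
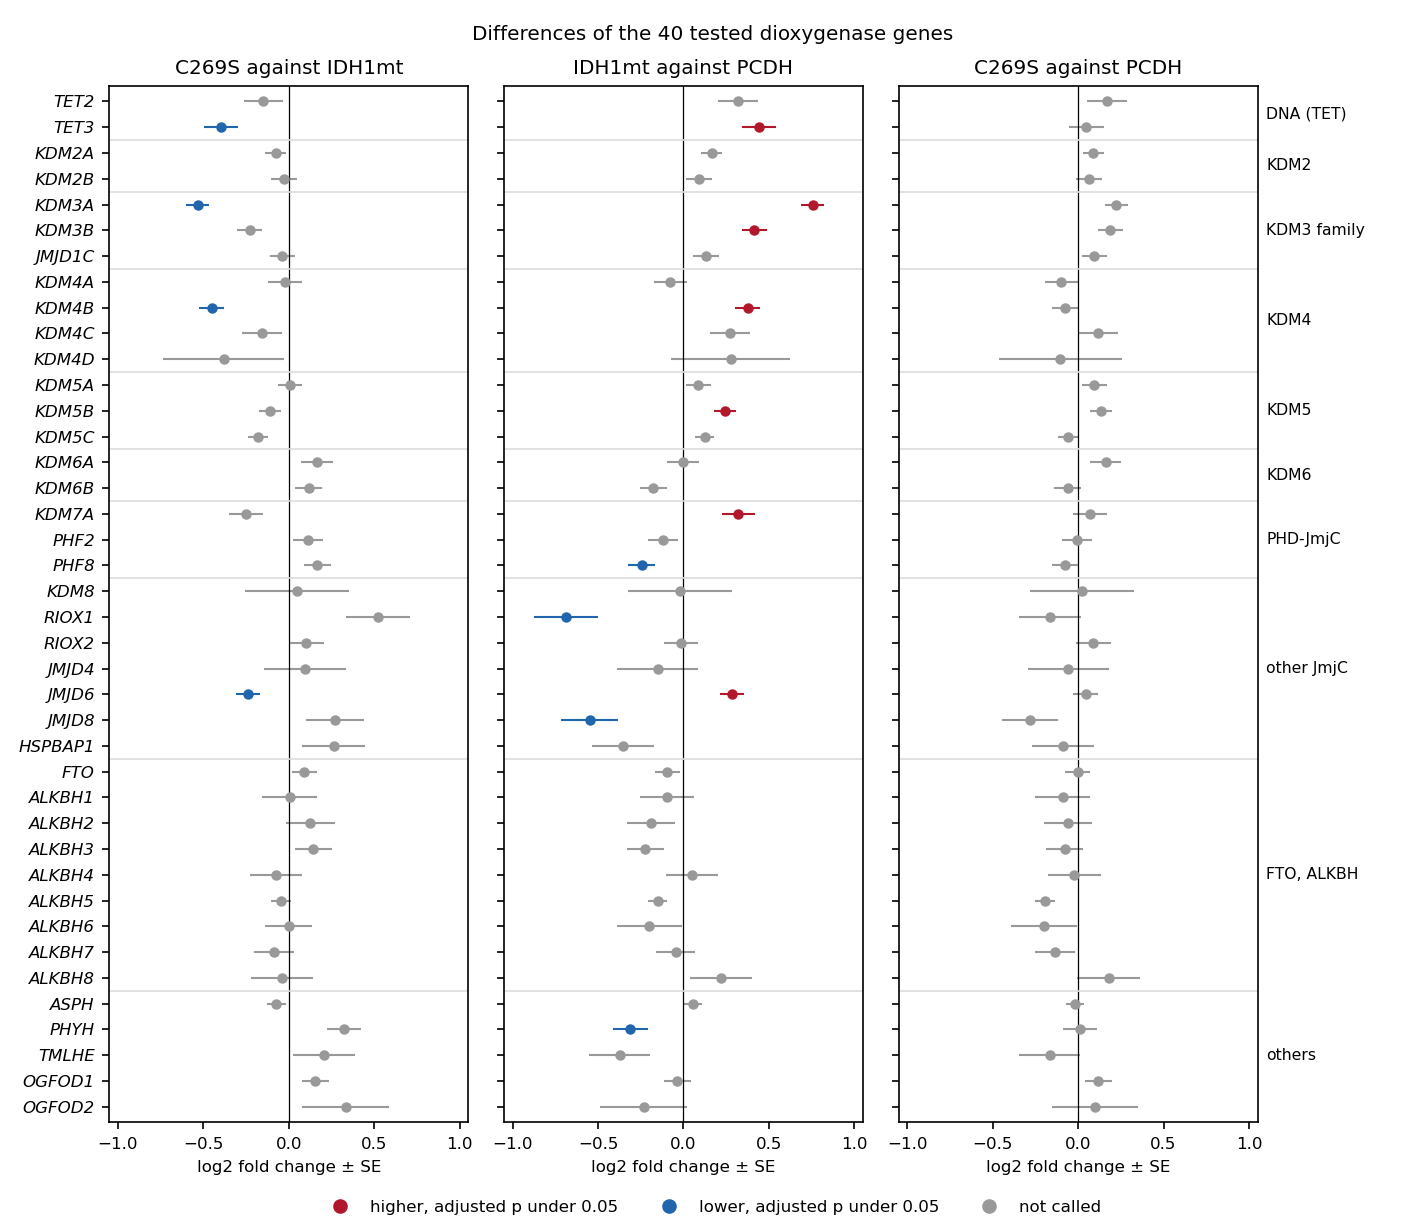
Log2 fold change with its standard error for the 40 tested genes, grouped by family, for C269S against IDH1mt (left), IDH1mt against PCDH (middle) and C269S against PCDH (right); red and blue points are called higher and lower and grey points are not called. The middle panel has 7 red and 4 blue points, the left panel 4 blue points and the right panel no coloured point.

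TET3 (ENSG00000187605, chromosome 2, 73986404 to 74108176, plus strand on GRCh38) oxidises methylated cytosine and is active in neural cells and early embryos. It stood at 19.7, 16.7 and 18.4 CPM in the C269S libraries, 23.2, 24.3 and 24.5 CPM in the IDH1mt libraries and 18.5, 16.4 and 18.1 CPM in the PCDH libraries (TMM-scaled CPM, as for all values per library that follow). The IDH1mt libraries were the highest, with no overlap with either other group, while C269S and PCDH overlapped. TET3 rose 1.36-fold in IDH1mt over PCDH (log2 fold change 0.44 with SE 0.10 and adjusted p = 0.00214, edgeR), a call lost in limma on FPKM with pseudocount 0.1. It was lower in C269S than in IDH1mt (log2 fold change -0.40 with SE 0.10 and adjusted p = 0.0152), a call lost without C269S replicate 2 or IDH1mt replicate 2 or 3 (adjusted p = 0.113, 0.0659 and 0.0741). That call was also lost in limma on FPKM with a pseudocount of 1 or 0.1. Between C269S and PCDH the log2 difference was 0.05 with a 95% interval of -0.16 to 0.26.

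TET2, which lacks the DNA-binding domain that TET1 and TET3 carry, stood at 16.1, 17.4 and 14.6 CPM in the C269S libraries, 18.5, 19.3 and 15.3 CPM in the IDH1mt libraries and 13.5, 13.4 and 15.7 CPM in the PCDH libraries. The groups overlapped, with IDH1mt replicate 3 below PCDH replicate 3. Its log2 fold change in IDH1mt over PCDH was 0.32 (SE 0.12) and did not pass edgeR's test (adjusted p = 0.0615), though it did without IDH1mt replicate 3 or PCDH replicate 3 (adjusted p = 0.0341 and 0.0183). TET1 had raw counts of 4, 4 and 0 in C269S, 8, 2 and 5 in IDH1mt and 3, 8 and 11 in PCDH. These counts were too low to test, and no difference was detectable at this depth.

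The KDM3 family removes one or both methyl groups from H3K9. KDM3A (ENSG00000115548, chromosome 2, 86440647 to 86492716, plus strand), which is also a known target of HIF, had 66.6, 66.0 and 67.8 CPM in the C269S libraries, 94.6, 95.4 and 100.2 CPM in the IDH1mt libraries and 53.8, 59.7 and 58.3 CPM in the PCDH libraries. The 3 groups were fully separate in the order IDH1mt, C269S, PCDH from high to low. KDM3A rose 1.69-fold in IDH1mt over PCDH (log2 fold change 0.76 with SE 0.07 and adjusted p = 7.27e-10, edgeR), the lowest adjusted p of the family. In C269S it was lower than in IDH1mt (log2 fold change -0.53 with SE 0.07 and adjusted p = 1.45e-06). Against PCDH the C269S libraries were all higher, with a log2 difference of 0.22 (95% interval 0.08 to 0.36) that did not pass (adjusted p = 0.109 in edgeR). The calls of KDM3A in the comparisons with IDH1mt held under all 20 alternative settings.

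KDM3B (ENSG00000120733, chromosome 5, 138352596 to 138437028, plus strand), its closest relative, stood at 51.8, 51.9 and 49.3 CPM in the C269S libraries, 59.4, 59.3 and 60.4 CPM in the IDH1mt libraries and 44.9, 42.4 and 47.0 CPM in the PCDH libraries. Here too the groups were fully separate, with C269S between the others. The gene rose 1.33-fold in IDH1mt over PCDH (log2 fold change 0.42 with SE 0.07 and adjusted p = 1.15e-04, edgeR), and this call held under all 20 alternatives. The difference of C269S from IDH1mt was -0.23 on the log2 scale and missed the threshold (adjusted p = 0.0646), which it passed without PCDH replicate 3 (adjusted p = 0.0245). The difference of C269S from PCDH was 0.19 (adjusted p = 0.254). JMJD1C, the remaining gene of the family, averaged 90.8 ± 6.95 CPM in C269S, 93.2 ± 2.98 CPM in IDH1mt and 85.0 ± 9.25 CPM in PCDH, and was not called in any comparison with all 9 libraries. It was called higher in IDH1mt without PCDH replicate 3 (adjusted p = 0.0221).

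Among the KDM4 enzymes, KDM4A, KDM4B and KDM4C act on trimethylated H3K9 and H3K36. KDM4B (ENSG00000127663, chromosome 19, 4969113 to 5153595, plus strand), a further known HIF target, stood at 56.8, 55.3 and 56.3 CPM in the C269S libraries, 73.3, 84.9 and 72.0 CPM in the IDH1mt libraries and 61.8, 58.9 and 57.0 CPM in the PCDH libraries. All IDH1mt libraries were above all others, with replicate 2 the highest, and all C269S libraries were below all PCDH libraries. KDM4B rose 1.30-fold in IDH1mt over PCDH (log2 fold change 0.37 with SE 0.07 and adjusted p = 4.48e-04, edgeR) and was lower in C269S than in IDH1mt (log2 fold change -0.45 with SE 0.07 and adjusted p = 1.05e-04). Both calls held under all 20 alternatives, without IDH1mt replicate 2 as well (adjusted p = 0.0149 over PCDH). The C269S mean was the lowest of the 3 groups, but its log2 difference from PCDH of -0.08 (95% interval -0.23 to 0.07) did not pass (adjusted p = 0.746).

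Other KDM4 genes were not called. KDM4C, another HIF target, averaged 12.2 ± 0.723 CPM in C269S, 13.6 ± 0.664 CPM in IDH1mt and 11.2 ± 0.415 CPM in PCDH, and its log2 fold change of 0.27 in IDH1mt over PCDH had an unadjusted p of 0.0269 and an adjusted p of 0.128 in edgeR. KDM4A averaged 19.9 ± 1.19 CPM in C269S, 20.3 ± 0.859 CPM in IDH1mt and 21.4 ± 0.356 CPM in PCDH. It shares 40.2% of its exon bases with AL451062.3 on the same strand, which had a mean of 0 counts. KDM4D, a relative expressed mainly in testis, had 15, 29 and 39 raw counts in C269S, 45, 38 and 34 in IDH1mt and 20, 29 and 48 in PCDH. The interval of its log2 difference between IDH1mt and PCDH reached from -0.44 to 0.99. Changes of its level smaller than that interval were not detectable at this depth.

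**Figure D3:**
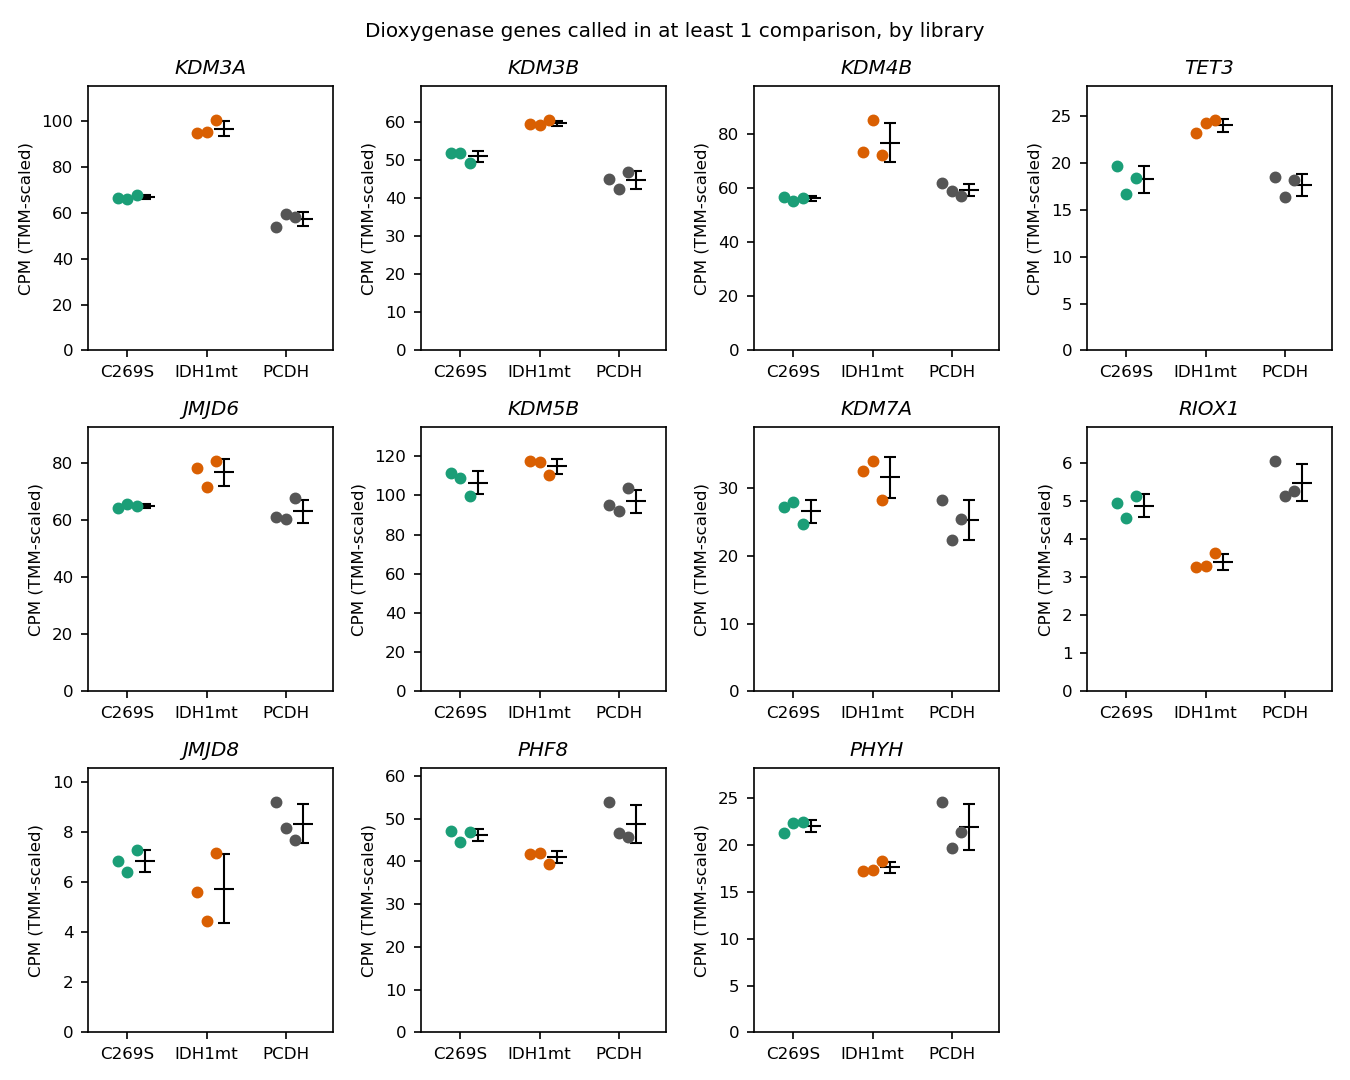
TMM-scaled CPM in each library for the 11 genes called in at least 1 comparison, with C269S, IDH1mt and PCDH from left to right; points are libraries and bars the mean ± SD of 3. KDM3A and KDM3B have 3 separate groups, KDM4B and TET3 have IDH1mt alone above, and RIOX1 and PHYH have IDH1mt alone below.

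The KDM2 enzymes demethylate H3K36, and KDM2B also brings Polycomb complexes to CpG islands. Neither was called by edgeR in any comparison, and 1, KDM2A, had an unadjusted p under 0.05. KDM2A averaged 107 ± 4.32 CPM in C269S, 113 ± 1.56 CPM in IDH1mt and 101 ± 4.95 CPM in PCDH, with an unadjusted p of 0.0130 for IDH1mt over PCDH (adjusted p = 0.0785), a difference that DESeq2 called (adjusted p = 0.0377) and limma-voom did not. KDM2B averaged 46.2 ± 1.47, 47.1 ± 1.56 and 44.3 ± 1.76 CPM in the same groups.

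The KDM5 enzymes erase H3K4 methylation, a mark of active promoters. KDM5B (ENSG00000117139, chromosome 1, 202724495 to 202809470, minus strand) stood at 111, 109 and 99.7 CPM in the C269S libraries, 117, 117 and 110.3 CPM in the IDH1mt libraries and 95.2, 92.2 and 103 CPM in the PCDH libraries. The IDH1mt libraries were all above the PCDH libraries, and the C269S libraries reached into both ranges. KDM5B rose 1.18-fold in IDH1mt over PCDH (log2 fold change 0.24 with SE 0.07 and adjusted p = 0.00958, edgeR), a call lost without IDH1mt replicate 1 or 2 or PCDH replicate 2 (adjusted p = 0.0556, 0.0503 and 0.0622). KDM5C averaged 229 ± 15.6 CPM in C269S, 259.8 ± 5.91 CPM in IDH1mt and 239 ± 10.7 CPM in PCDH, and its difference of -0.18 (log2) between C269S and IDH1mt missed the threshold (adjusted p = 0.0651). It passed without C269S replicate 3 and without PCDH replicate 3 (adjusted p = 0.0141 and 0.0168). KDM5A, the founding enzyme of the family, averaged 81.2 ± 5.31 CPM in C269S, 80.7 ± 5.55 CPM in IDH1mt and 76.0 ± 4.50 CPM in PCDH.

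The H3K27 demethylases, which oppose the Polycomb methyltransferase EZH2, were not called by edgeR with all libraries, nor by DESeq2 or limma-voom. KDM6A averaged 28.1 ± 2.12 CPM in C269S, 25.1 ± 1.71 CPM in IDH1mt and 25.1 ± 1.08 CPM in PCDH. KDM6B averaged 57.6 ± 0.987, 53.1 ± 4.52 and 60.1 ± 5.79 CPM in the same groups, with an unadjusted p of 0.0324 and an adjusted p of 0.145 for IDH1mt over PCDH in edgeR. Its PCDH replicate 3 was the lowest of that group, and without that library KDM6B was called lower in IDH1mt (adjusted p = 0.0120).

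Members of the group that pairs a PHD finger, a reader of H3K4 methylation, with a JmjC domain went in different directions. KDM7A (ENSG00000006459, chromosome 7, 140084746 to 140177035, minus strand), a demethylase of H3K9 and H3K27, had 27.2, 28.0 and 24.7 CPM in the C269S libraries, 32.6, 34.0 and 28.2 CPM in the IDH1mt libraries and 28.3, 22.4 and 25.4 CPM in the PCDH libraries. The lowest IDH1mt library lay slightly below the highest PCDH library. KDM7A rose 1.25-fold in IDH1mt over PCDH (log2 fold change 0.32 with SE 0.10 and adjusted p = 0.0248, edgeR), which was lost without IDH1mt replicate 1 or 2 or PCDH replicate 2 (adjusted p = 0.0996, 0.142 and 0.162) and with library size as the only scaling (adjusted p = 0.0574). The log2 difference of C269S from IDH1mt was -0.25 (unadjusted p = 0.0155, adjusted p = 0.163).

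PHF8 (ENSG00000172943, chromosome X, 53936676 to 54048958, minus strand), an H3K9 and H4K20 demethylase linked to X-chromosomal intellectual disability, stood at 47.1, 44.6 and 46.8 CPM in the C269S libraries, 41.8, 42.0 and 39.4 CPM in the IDH1mt libraries and 53.8, 46.7 and 45.6 CPM in the PCDH libraries. Every IDH1mt library was below every library of the other groups. PHF8 was lower in IDH1mt than in PCDH (log2 fold change -0.24 with SE 0.08 and adjusted p = 0.0361, edgeR). This call was lost without any 1 of the IDH1mt libraries or without PCDH replicate 1, the highest (adjusted p = 0.0793 to 0.236), and under the replicate block (adjusted p = 0.0570). PHF2, the other gene of the group, averaged 29.7 ± 1.85 CPM in C269S, 27.6 ± 0.848 CPM in IDH1mt and 30.0 ± 1.62 CPM in PCDH and was not called.

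Among the remaining JmjC genes, most of which encode protein hydroxylases, 1 rose and 2 fell in IDH1mt. JMJD6 (ENSG00000070495, chromosome 17, 76712832 to 76726799, minus strand), which hydroxylates lysines of splicing factors, stood at 64.2, 65.4 and 65.0 CPM in the C269S libraries, 78.1, 71.4 and 80.5 CPM in the IDH1mt libraries and 61.0, 60.2 and 67.7 CPM in the PCDH libraries. The IDH1mt libraries were all above the others, and C269S lay within the range of PCDH. JMJD6 rose 1.22-fold in IDH1mt over PCDH (log2 fold change 0.28 with SE 0.07 and adjusted p = 0.00578, edgeR), lost without IDH1mt replicate 3 (adjusted p = 0.0540). Its fall in C269S against IDH1mt was close to the threshold (log2 fold change -0.24 with SE 0.07 and adjusted p = 0.0444). That call was lost without any 1 of the C269S libraries or without IDH1mt replicate 1 or 3 (adjusted p = 0.0833 to 0.231), in limma-voom, with library size alone, without a filter on low counts and under the replicate block (adjusted p = 0.0554, 0.0750, 0.0706 and 0.0775).

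RIOX1 (ENSG00000170468, chromosome 14, 73490964 to 73493392, plus strand) hydroxylates a ribosomal protein in the nucleolus. It had low levels, with 4.95, 4.56 and 5.15 CPM in the C269S libraries, 3.28, 3.29 and 3.64 CPM in the IDH1mt libraries and 6.05, 5.14 and 5.28 CPM in the PCDH libraries, or 97, 90 and 112 raw counts in C269S, 78, 80 and 68 in IDH1mt and 123, 122 and 119 in PCDH. All IDH1mt libraries were below all libraries of the other groups. Its fall in IDH1mt against PCDH was the largest of the called members (log2 fold change -0.69 with SE 0.19 and adjusted p = 0.0107, edgeR), lost without PCDH replicate 1 (adjusted p = 0.0571). C269S was 1.44-fold IDH1mt, which did not pass (log2 fold change 0.52, adjusted p = 0.121). RIOX1 shares 84 exon bases with HEATR4 on the opposite strand.

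JMJD8 (ENSG00000161999, chromosome 16, 681671 to 684528, minus strand), a JmjC protein of the endoplasmic reticulum, stood at 6.84, 6.43 and 7.31 CPM in the C269S libraries, 5.60, 4.45 and 7.18 CPM in the IDH1mt libraries and 9.19, 8.18 and 7.67 CPM in the PCDH libraries. The IDH1mt libraries spread the most and were all below those of PCDH. JMJD8 was lower in IDH1mt than in PCDH (log2 fold change -0.55 with SE 0.17 and adjusted p = 0.0241, edgeR), lost without IDH1mt replicate 1 or 2 or PCDH replicate 1 or 2 (adjusted p = 0.0557 to 0.183). Of its exon bases 983, or 37.4%, are shared with STUB1 on the opposite strand, which had a mean of 734 counts per library against 150 for JMJD8. The strand setting of the counting is not given, so reads of the pair may not have been separated.

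The other JmjC genes were not called in any comparison with all 9 libraries. The ribosomal oxygenase RIOX2 averaged 18.2 ± 0.531 CPM in C269S, 17.0 ± 0.637 CPM in IDH1mt and 17.1 ± 0.934 CPM in PCDH, and 27.6% of its exon bases are shared with CRYBG3 on the opposite strand. For both RIOX2 and HSPBAP1 the C269S libraries lay above the IDH1mt libraries. HSPBAP1 averaged 5.58 ± 0.565, 4.64 ± 0.392 and 5.93 ± 1.26 CPM in the same groups. JMJD4, which hydroxylates a translation release factor, averaged 2.69 ± 0.183 CPM in C269S, 2.52 ± 0.227 CPM in IDH1mt and 2.79 ± 0.394 CPM in PCDH, and shares 53.8% of its exon bases with SNAP47 on the opposite strand. KDM8 averaged 2.26 ± 0.404, 2.21 ± 0.738 and 2.24 ± 0.819 CPM in the same groups.

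None of the 9 genes of the AlkB family, several of which take methyl groups off RNA or DNA bases, was called by edgeR in any comparison. Their median log2 fold changes were within 0.01 of 0 in C269S against IDH1mt, -0.10 in IDH1mt against PCDH and -0.08 in C269S against PCDH. At an unadjusted p under 0.05, edgeR's test found 0, 2 and 1 of them in these comparisons. Over all 16874 tested genes it found 2817, 4396 and 2019 at that level, and called 4.90%, 14.1% and 1.42%. Of the AlkB genes DESeq2 called 1, ALKBH5, in C269S against PCDH, and limma-voom called 0. ALKBH5 stood at 182, 178 and 186 CPM in the C269S libraries, 192, 181 and 189.7 CPM in the IDH1mt libraries and 196, 216 and 213 CPM in the PCDH libraries. The PCDH libraries were above all others, and the mutants overlapped. Its log2 difference from PCDH was -0.20 in C269S (95% interval -0.31 to -0.08, adjusted p = 0.0870) and -0.15 in IDH1mt (95% interval -0.27 to -0.03, adjusted p = 0.0767). ALKBH5 passed as lower in C269S in DESeq2 and with library size alone, and as lower in IDH1mt with library size alone and without PCDH replicate 1 (adjusted p = 0.0418).

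FTO, the other m6A eraser, averaged 77.4 ± 5.76 CPM in C269S, 72.6 ± 1.72 CPM in IDH1mt and 77.6 ± 7.37 CPM in PCDH. The interval of its log2 difference was -0.06 to 0.24 in C269S against IDH1mt, -0.24 to 0.06 in IDH1mt against PCDH and -0.15 to 0.15 in C269S against PCDH. ALKBH2 and ALKBH3, which repair alkylated DNA, averaged 10.8 ± 1.45 and 19.8 ± 2.41 CPM in C269S, 9.90 ± 1.54 and 18.0 ± 1.38 CPM in IDH1mt, and 11.3 ± 1.28 and 21.0 ± 1.26 CPM in PCDH. For ALKBH3 the IDH1mt libraries lay below those of PCDH (unadjusted p = 0.0449, adjusted p = 0.179 in edgeR). ALKBH8, a tRNA methyltransferase with an AlkB domain, had 8.17, 7.85 and 7.67 CPM in C269S, 7.57, 7.62 and 9.27 CPM in IDH1mt and 4.57, 6.70 and 9.58 CPM in PCDH, where PCDH replicate 3 was the highest library. Without that library ALKBH8 was called higher in IDH1mt (adjusted p = 0.0345). ALKBH1, ALKBH4, ALKBH6 and ALKBH7 had overlapping groups in every comparison. ALKBH7, a mitochondrial member, averaged 18.4 ± 1.98 CPM in C269S, 19.7 ± 1.95 CPM in IDH1mt and 20.3 ± 3.21 CPM in PCDH. ALKBH1, which acts on tRNA, averaged 8.68 ± 0.927, 8.58 ± 2.34 and 9.23 ± 0.477 CPM in the same groups. ALKBH4 averaged 8.10 ± 1.31, 8.55 ± 0.726 and 8.23 ± 1.29 CPM, and ALKBH6 7.25 ± 1.64, 7.23 ± 0.935 and 8.35 ± 2.44 CPM, again in C269S, IDH1mt and PCDH. ALKBH4 shares 25.3% of its exon bases with the more abundant ORAI2 on the opposite strand. ALKBH6 shares 25.1% with AC002116.1 on the same strand, which had a mean of 0 counts.

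The last group acts on small molecules and on proteins outside chromatin. PHYH (ENSG00000107537, chromosome 10, 13277796 to 13302412, minus strand), which starts the breakdown of phytanic acid in peroxisomes, stood at 21.3, 22.3 and 22.5 CPM in the C269S libraries, 17.3, 17.3 and 18.3 CPM in the IDH1mt libraries and 24.5, 19.7 and 21.4 CPM in the PCDH libraries. The IDH1mt libraries were the lowest, with no overlap with either other group. PHYH was lower in IDH1mt than in PCDH (log2 fold change -0.31 with SE 0.10 and adjusted p = 0.0364, edgeR), lost without any 1 of the IDH1mt libraries or without PCDH replicate 1 (adjusted p = 0.0649 to 0.222) and under the replicate block (adjusted p = 0.0599). C269S was 1.25-fold IDH1mt (log2 fold change 0.32, adjusted p = 0.0623), which passed without PCDH replicate 3 (adjusted p = 0.0313).

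ASPH averaged 1516 ± 24.9 CPM in C269S, 1593 ± 9.09 CPM in IDH1mt and 1535 ± 141 CPM in PCDH. Its log2 difference had the narrowest intervals of the family, -0.06 to 0.16 for IDH1mt against PCDH. All C269S libraries lay below all IDH1mt libraries, with a log2 difference of -0.07 (adjusted p = 0.557 in edgeR). TMLHE, the first enzyme of carnitine synthesis, averaged 8.09 ± 1.57 CPM in C269S, 6.99 ± 1.19 CPM in IDH1mt and 9.08 ± 2.41 CPM in PCDH, with an unadjusted p of 0.0446 and an adjusted p of 0.178 in IDH1mt against PCDH. OGFOD1, a prolyl hydroxylase of a ribosomal protein, and OGFOD2 were not called. OGFOD1 averaged 53.4 ± 3.86 CPM in C269S, 48.0 ± 0.816 CPM in IDH1mt and 49.2 ± 4.02 CPM in PCDH, with the C269S libraries above the IDH1mt libraries. OGFOD2 averaged 2.71 ± 0.360, 2.16 ± 0.382 and 2.52 ± 0.271 CPM in the same groups, and 35.9% of its exon bases are shared with ABCB9 on the opposite strand. A gene on its own strand, AC026362.1, shares 67.3% of them and had a mean of 0 counts.

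Genes of connected pathways were counted in the same fit, from lists that hold none of the 41 except where stated. A list of further 2-oxoglutarate oxygenases held those of HIF and collagen and others such as TYW5, which acts on tRNA, and HR, a JmjC protein. Of its 19 tested genes 5 were lower and 0 higher in C269S than in IDH1mt (26.3%, beside 4.90% of all tested genes), 6 rose and 2 fell in IDH1mt against PCDH (42.1%, beside 14.1%), and 0 rose and 2 fell in C269S against PCDH (10.5%, beside 1.42%). Leaving out PCDH replicate 3 gave 5 that rose in IDH1mt against PCDH and no other change in these counts. The median log2 fold changes were -0.08, 0.12 and -0.04 in that order, beside values within 0.01 of 0 over all tested genes. EGLN3, a prolyl hydroxylase that marks HIF for destruction and is itself induced by it, stood at 11.3, 10.7 and 9.60 CPM in the C269S libraries, 35.6, 32.2 and 34.9 CPM in the IDH1mt libraries and 8.41, 12.6 and 12.3 CPM in the PCDH libraries. It was 3.06-fold higher in IDH1mt than in PCDH (log2 fold change 1.62 with SE 0.12 and adjusted p = 1.09e-11, edgeR), with C269S in the range of PCDH. EGLN1, PLOD2 and P4HA1, which hydroxylate HIF, collagen lysine and collagen proline, had log2 fold changes of -0.46, -0.42 and -0.34 in C269S against IDH1mt and 0.56, 0.33 and 0.26 in IDH1mt against PCDH, all called. P3H3, a relative of the collagen prolyl 3-hydroxylases, and P4HTM, a transmembrane prolyl hydroxylase, went the other way, with log2 fold changes of -0.33 and -0.33 in IDH1mt against PCDH (adjusted p = 7.47e-04 and 0.00300, edgeR). They were also lower in C269S than in PCDH, with log2 fold changes of -0.32 and -0.31 (adjusted p = 0.00973 and 0.0366).

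KDM3A, KDM4B and KDM4C form the list of JmjC genes known to be induced by HIF. Of these 2 were lower in C269S than in IDH1mt, and 2 were higher in IDH1mt than in PCDH. In C269S against PCDH edgeR called 0 of the 3, while DESeq2, and edgeR without PCDH replicate 3, called KDM3A higher. Of 10 HIF targets that are no dioxygenases, 0 were higher and 9 lower in C269S against IDH1mt in the same libraries. In IDH1mt against PCDH 9 were higher and 1, CA9, lower, and in C269S against PCDH 1 was higher and 1 lower. Over all tested genes 4.90% were called in C269S against IDH1mt, 14.1% in IDH1mt against PCDH and 1.42% in C269S against PCDH. Of the 9 higher in IDH1mt, ANKRD37 was not called by DESeq2, by limma-voom or by edgeR without PCDH replicate 3, each of which called 8 higher and 1 lower. In C269S against IDH1mt limma-voom called 8 lower, and leaving out PCDH replicate 3 gave 10. SLC2A1, the glucose transporter, and HILPDA, a lipid droplet protein, averaged 116 ± 11.0 and 41.6 ± 3.64 CPM in C269S, 357 ± 12.7 and 234 ± 18.6 CPM in IDH1mt, and 95.8 ± 4.22 and 39.4 ± 5.15 CPM in PCDH. NDRG1 and VEGFA had log2 fold changes of 1.26 and 0.74 in IDH1mt against PCDH. The part of the hypoxia response in the levels of KDM3A and KDM4B was not tested.

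**Figure D4:**
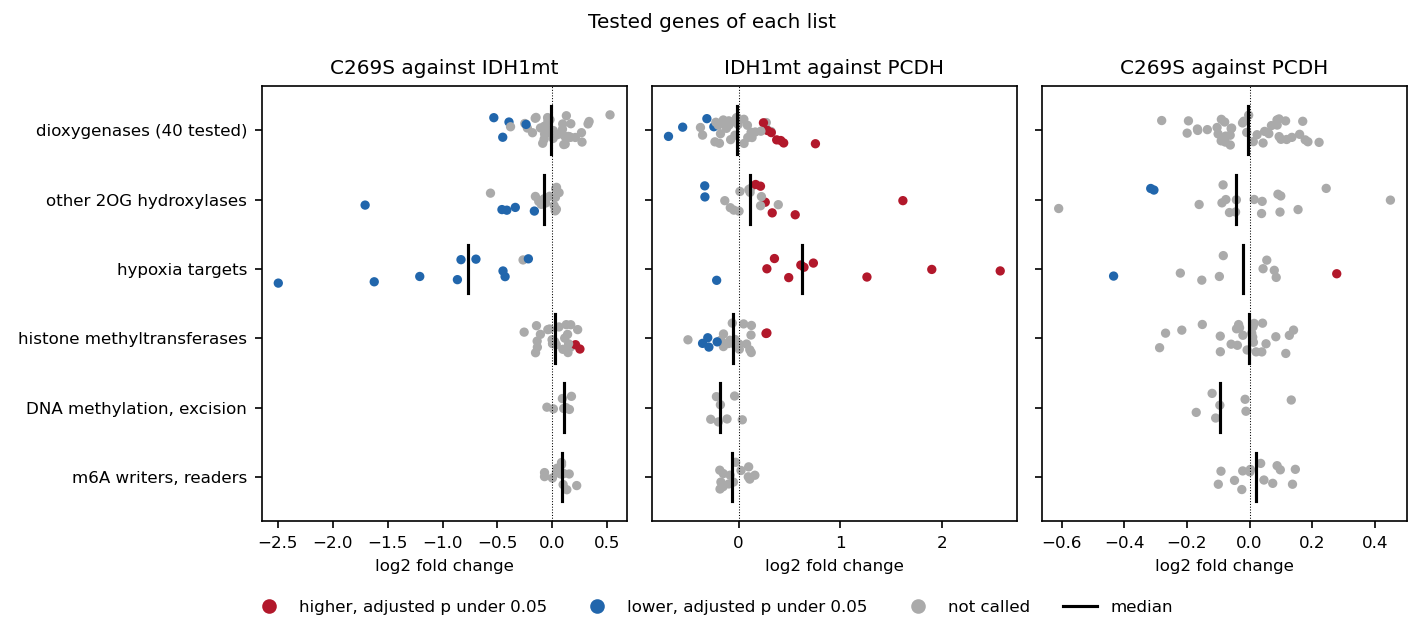
Log2 fold changes of the tested genes of the dioxygenase set and of 5 connected lists, for C269S against IDH1mt, IDH1mt against PCDH and C269S against PCDH; each point is a gene, red and blue are called higher and lower, and a black bar is the list's median. The horizontal axis has its own range in each panel. The HIF targets are spread to the right in IDH1mt against PCDH and to the left in C269S against IDH1mt, while the dioxygenase set lies on both sides of 0.

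Enzymes that write the histone marks were counted next. Of 26 histone methyltransferases, 2 rose and 0 fell in C269S against IDH1mt (7.69%, beside 4.90% of all tested genes), and 2 rose and 4 fell in IDH1mt against PCDH (23.1%, beside 14.1%). In C269S against PCDH 0 were called by edgeR, beside 1.42% of all tested genes. There 1 had an unadjusted p under 0.05, beside 2019 of all 16874 tested genes, and DESeq2 and limma-voom called 0 of the list. Leaving out PCDH replicate 3 made PRDM2 lower in C269S than in IDH1mt, as DESeq2 did, brought the number that fell in IDH1mt against PCDH to 7, and made KMT5C lower in C269S than in PCDH. NSD2, an H3K36 methyltransferase, averaged 293 ± 4.82 CPM in C269S, 254 ± 7.42 CPM in IDH1mt and 313 ± 6.93 CPM in PCDH. It was higher in C269S than in IDH1mt (log2 fold change 0.21 with SE 0.05 and adjusted p = 0.0140, edgeR) and lower in IDH1mt than in PCDH (log2 fold change -0.30 with SE 0.05 and adjusted p = 1.01e-04). EZH2, which writes H3K27 methylation, averaged 55.9 ± 1.72 CPM in C269S, 47.0 ± 0.953 CPM in IDH1mt and 54.4 ± 1.11 CPM in PCDH, and moved in the same directions (adjusted p = 0.0364 and 0.0452). NSD1 was lower and PRDM2 higher in IDH1mt than in PCDH (log2 fold changes -0.29 and 0.28).

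None of 7 genes of DNA methylation and base excision, of 14 writers and readers of m6A, or of the flavin-dependent demethylases KDM1A and KDM1B was called by edgeR in any comparison. Of these lists 2, 3 and 0 genes had an unadjusted p under 0.05 in IDH1mt against PCDH, 1, 1 and 0 in C269S against PCDH, and 0, 1 and 0 in C269S against IDH1mt. Over all 16874 tested genes 4396, 2019 and 2817 had such a p in these comparisons, and 14.1%, 1.42% and 4.90% were called. Of the 3 lists DESeq2 called 1 gene, WTAP, lower in IDH1mt than in PCDH, and limma-voom called 0. Without PCDH replicate 3 edgeR called UHRF1 lower and ZC3H13 and YTHDF2 higher in IDH1mt, and YTHDF3 and ZC3H13 higher in C269S, than in PCDH. WTAP, a subunit of the m6A methyltransferase, stood at 116 ± 5.01 CPM in C269S, 109 ± 1.53 CPM in IDH1mt and 123 ± 3.49 CPM in PCDH (adjusted p = 0.0512 for IDH1mt against PCDH). UHRF1, which guides DNMT1 to newly copied DNA, averaged 38.1 ± 2.22, 35.1 ± 3.12 and 40.7 ± 1.82 CPM in the same groups (adjusted p = 0.0865). Of 12 enzymes that make or consume 2-oxoglutarate and 2-hydroxyglutarate, IDH1 and IDH2 were higher and OGDH lower in IDH1mt than in PCDH (25%, beside 14.1% of all tested genes). IDH2, the mitochondrial isocitrate dehydrogenase, had a log2 fold change of 0.30 (adjusted p = 0.00110) and OGDH, a subunit of the oxoglutarate dehydrogenase complex, one of -0.17 (adjusted p = 0.0479). In C269S against PCDH IDH1 alone was called, and in C269S against IDH1mt 0 of the 12, where 4 had an unadjusted p under 0.05 and DESeq2 and limma-voom called 0. OGDH was no longer called without PCDH replicate 3, and GOT1 was called higher in C269S than in IDH1mt.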

How the data were processed

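RNA from U87 cells of 3 groups was sequenced as 3 libraries each. Per the submitters' processing notes, the authors aligned reads to GRCh38 (hg38) with HISAT2 2.0.5 and counted them per gene with featureCounts 1.5.0-p3. The deposited table gives raw counts per gene, as read from whole numbers that sum to a different total in each library. The deposited FPKM values were made by the authors and were used for levels between genes and for a check with limma. The strand setting of the counting is not given in the sources used here. All comparisons used edgeR 4.0.16 in R 4.3.3 on the deposited counts of 9 libraries together (filterByExpr, TMM, robust quasi-likelihood F test, no covariate), with Benjamini-Hochberg adjustment over 16874 genes and calls at an adjusted p under 0.05. CPM are TMM-scaled, and standard errors are the log2 fold change divided by the root of F. A simulated comparison of IDH1mt with PCDH on the same 16874 genes was used to test the code. DESeq2 1.42.0, limma 3.58.1 (voom, and FPKM with pseudocounts of 1 and 0.1), other scalings and filters, a replicate block and leaving out each library were the alternatives. Replicate numbers did not pair the libraries: same-numbered libraries of different groups had correlations of their deviations from the group means of -0.0871 to 0.0558. All members are described. From each connected list genes were named from the 4 with the lowest adjusted p over the 3 comparisons, and any other gene named was chosen after its values were seen. The members and the lists were chosen with earlier results of these data known. Coordinates follow the deposited annotation, which matched GENCODE 29 for all 41 members.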

Additional observations from a re-analysis of the deposited data

How the results depend on the processing

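Counts of called members varied as follows. In IDH1mt against PCDH the count higher was 7 and became 4 in limma on log2(FPKM + 0.1), and it ran from 5 to 10 with single libraries left out. The count lower was 4 and became 2 with the 6 libraries of the comparison alone and under the replicate block, 1 in limma on FPKM with either pseudocount and 0 at an adjusted p under 0.01, and it ran from 1 to 5 with single libraries left out. Without PCDH replicate 1 the 1 gene lower was ALKBH5, and all 4 of the main calls were lost. In C269S against PCDH the count higher was 0 and became 1 in DESeq2, with 0 to 1 over left-out libraries, and the count lower was 0 and became 1 with library size alone and in DESeq2. In C269S against IDH1mt the count higher was 0 and became 1 with library size alone and with the 6 libraries alone, with 0 to 1 over left-out libraries, and the count lower was 4 and became 2 in limma on FPKM with either pseudocount and at an adjusted p under 0.01, with 2 to 6 over left-out libraries. Under the replicate block, which the numbers do not justify, JMJD6 was lost in C269S against IDH1mt, leaving 3, and PHF8 and PHYH in IDH1mt against PCDH. Limma on FPKM with either pseudocount lost KDM5B, KDM7A, PHF8, JMJD8 and PHYH in IDH1mt against PCDH. It also lost TET3 and JMJD6 in C269S against IDH1mt. The call of TET3 in IDH1mt against PCDH was lost with pseudocount 0.1 alone. Over the 12 members followed through 20 alternatives in 3 comparisons, 644 values kept direction and call, 59 lost and 10 gained a call, and 7 changed sign, all uncalled values of C269S against PCDH. The log2 value of PHYH became -0.0071 with library size alone and ran from -0.059 (without PCDH replicate 2) to 0.10 over left-out libraries, with -0.0015 without PCDH replicate 3. TET3 ran from -0.0067 (without C269S replicate 1) to 0.11, with -0.0054 without PCDH replicate 2. KDM7A ran from -0.013 (without PCDH replicate 2) to 0.15, and PHF8 from -0.12 to 6.9e-05 (without PCDH replicate 1). The cause of these changes was not tested. Depth limits TET1, KDM4D, KDM8, JMJD4, OGFOD2 and RIOX1, which had few counts.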
